A study of Mus musculus with 2 samples.

Results

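TRIM proteins are a large family, many of them ubiquitin ligases. The 67 TRIM genes described here are the nuclear protein-coding genes in both gene tables whose GENCODE mouse symbol begins with Trim and a digit. Membership rests on the symbol alone, out of 21461 nuclear protein-coding genes, though the choice was made with earlier results of these data known. Trim10 and Trim58, both known for their expression in the red cell lineage, are set against the other 65 members. Levels were measured by total RNA-seq in primary erythroblasts, which are red cell precursors that still have a nucleus, from male adult mice of the strain C57BL/6J, 5 to 6 weeks old. The design has 1 group of 2 libraries, replicates 1 and 2, each prepared from 1 ng of RNA, with no treatment, mutant or other cell type beside them. The labels give the libraries separate biosamples under a single donor entry and leave unsaid whether more than 1 animal was used. All levels therefore stand as descriptions with the spread between these libraries, which may be technical, and no test between conditions was possible.

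A typical TRIM protein carries a RING finger, which recruits a ubiquitin-charged E2 enzyme, followed by B-box zinc fingers and a coiled coil. Its C-terminal domain selects the substrate. Not every member has a RING finger. In late erythroblasts Trim58 is known to bind the microtubule motor dynein and drive its degradation, a step linked to loss of the nucleus. Trim10, first described as a haematopoietic RING finger protein, is known from erythroleukaemia cells to be needed for terminal erythroid differentiation and globin expression. Many other members act in innate immunity, where type I interferon induces a number of them, and others work in transcription, muscle or neurons.

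The promoters of Trim10 and Trim58 are shown first because these genes lead the comparison, together with that of Trim59, the member nearest to them in level. Each window holds the 250 bases before a RefSeq transcription start on GRCm38.p6, written in the direction of the gene. For 52 of 66 TRIM windows checked, the bases after that start lay near the start of a GENCODE transcript of the gene. For the others they did not, and all distances refer to the RefSeq start. Capitals mark GATAA, a form of the sites bound by GATA factors, or its reverse complement. Other forms of these sites were neither searched nor marked. The windows lie at chr17:36869324-36869573 for Trim10 (plus strand), chr11:58640215-58640464 for Trim58 (plus strand) and chr3:69044743-69044992 for Trim59 (minus strand).
Trim10: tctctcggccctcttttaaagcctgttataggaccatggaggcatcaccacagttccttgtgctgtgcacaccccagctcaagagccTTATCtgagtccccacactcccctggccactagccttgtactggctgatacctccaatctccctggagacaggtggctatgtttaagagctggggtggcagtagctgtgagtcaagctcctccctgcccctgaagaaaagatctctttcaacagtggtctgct
Trim58: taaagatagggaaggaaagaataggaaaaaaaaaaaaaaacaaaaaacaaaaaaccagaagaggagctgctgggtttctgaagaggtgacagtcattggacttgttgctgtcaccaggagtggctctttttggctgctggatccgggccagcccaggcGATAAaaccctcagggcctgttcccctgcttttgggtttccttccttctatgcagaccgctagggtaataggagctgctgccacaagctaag
Trim59: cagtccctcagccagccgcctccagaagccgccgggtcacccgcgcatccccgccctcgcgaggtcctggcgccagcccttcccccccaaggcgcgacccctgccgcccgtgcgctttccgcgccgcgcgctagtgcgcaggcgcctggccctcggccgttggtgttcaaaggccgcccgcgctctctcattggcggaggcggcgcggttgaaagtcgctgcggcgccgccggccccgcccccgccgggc
The Trim10 window held 1 GATAA, which began 163 bases before the start on the opposite strand. The Trim58 window held 1 as well, 92 bases before the start on the gene's own strand. The Trim59 window held none. GATAA, searched on both strands, stood in 10 of the 66 TRIM windows (15.2%), against 22.6% of all 32817 RefSeq windows. The letters CCNCNCCC, a form bound by KLF factors, stood in neither the Trim10 nor the Trim58 window and 3 times in that of Trim59, against 45.9% of all windows. TATAAA stood in none of these 3, against 12.4% of all windows. Both were searched on both strands.

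The second set of windows is shown because of a GAAA repeat, spelled GAAA, then any 2 bases, then GAAA, which is the core of interferon-response elements. Searched on both strands, it stood in 5 of the 66 TRIM windows (7.58%), those of Trim5, Trim12c, Trim30a, Trim30d and Trim26, against 2.97% of all windows. The first 4 of these genes lie in 1 cluster on chromosome 7, at chr7:104288107-104288356, chr7:104353350-104353599, chr7:104465194-104465443 and chr7:104507850-104508099 on the minus strand. Around the match the Trim5 and Trim12c windows are near copies of each other, as are the Trim30a and Trim30d windows. The 5 are therefore not separate matches to set against 2.97%. A second Trim30a window held no match, nor did that of Trim12a in the same cluster. These windows resemble the first Trim30a window and the Trim5 window but end before the place where those hold the match. The bases beyond were not searched, so whether the repeat stands there was not tested. Trim26 lies at chr17:36836896-36837145 on the plus strand. Capitals mark the GAAA repeat or its reverse complement, and GATAA in Trim12c.
Trim5: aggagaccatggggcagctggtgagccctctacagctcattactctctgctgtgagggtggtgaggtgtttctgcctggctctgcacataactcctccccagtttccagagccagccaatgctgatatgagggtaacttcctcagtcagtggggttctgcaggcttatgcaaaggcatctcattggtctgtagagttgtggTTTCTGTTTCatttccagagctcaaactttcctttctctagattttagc
Trim12c: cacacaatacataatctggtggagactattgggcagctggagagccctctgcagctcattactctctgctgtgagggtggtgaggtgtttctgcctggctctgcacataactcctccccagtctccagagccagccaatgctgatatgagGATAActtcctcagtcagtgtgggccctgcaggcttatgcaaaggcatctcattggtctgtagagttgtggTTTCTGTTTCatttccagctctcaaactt
Trim30a: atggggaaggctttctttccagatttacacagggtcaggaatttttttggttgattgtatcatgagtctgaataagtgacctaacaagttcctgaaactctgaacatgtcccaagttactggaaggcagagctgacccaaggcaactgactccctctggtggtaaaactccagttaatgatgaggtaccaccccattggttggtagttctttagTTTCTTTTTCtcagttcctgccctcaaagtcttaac
Trim30d: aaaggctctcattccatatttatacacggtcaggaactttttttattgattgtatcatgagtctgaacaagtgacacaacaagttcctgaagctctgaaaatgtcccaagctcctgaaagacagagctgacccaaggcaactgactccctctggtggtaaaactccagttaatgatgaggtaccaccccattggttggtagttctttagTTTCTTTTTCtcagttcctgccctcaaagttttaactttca
Trim26: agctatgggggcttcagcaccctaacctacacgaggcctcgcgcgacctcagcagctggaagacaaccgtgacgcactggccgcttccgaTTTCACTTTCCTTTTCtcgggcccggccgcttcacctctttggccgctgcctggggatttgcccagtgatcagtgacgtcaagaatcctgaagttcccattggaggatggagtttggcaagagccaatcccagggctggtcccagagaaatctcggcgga
In the chromosome 7 genes the match lay on the opposite strand, 49, 29, 36 and 41 bases before the start, in the order shown. Trim26 had 2 matches that overlap each other, 160 and 154 bases before the start. In all, 52 of the 67 members had a window. A match is a stretch of letters only, and binding was not measured.

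Levels are given as rescaled TPM, that is TPM, an abundance corrected for transcript length, after setting the nuclear protein-coding genes of each library to sum to 1000000. Before that step these genes held 4.68% and 5.10% of the deposited TPM. Nuclear protein-coding genes held 4393960 expected counts in replicate 1 and 6815840 in replicate 2, out of 80806663 and 117032607 in all. All 11 erythroid markers were detected, summing to 45.0 ± 0.251% of the nuclear protein-coding TPM. All 12 neutrophil markers were detected too, from Cebpe to S100a9, at 4.49 ± 0.169%, as were all 10 monocyte and macrophage markers at 0.474 ± 0.0210%. In RNA from a cell mixture, fewer cells of a type and less RNA per cell cannot be told apart, and the part of non-erythroid cells in the level of any TRIM gene was not tested.

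Trim10 was the highest TRIM gene in these erythroblasts. It stood at 606 rescaled TPM in both libraries (605.7 ± 0.178, SD, n = 2), from 4302 and 6857 expected counts. Among all nuclear protein-coding genes it held rank 157 in replicate 1 and rank 159 in replicate 2. Trim10 lies on the plus strand of chromosome 17 (chr17:36869574-36877833) and has 1 annotated transcript, Trim10-201, of 2245 bases, which is protein coding.

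Trim58 stood at 378 rescaled TPM in replicate 1 and 328 in replicate 2 (353 ± 35.6, n = 2), from 2616 and 3615 expected counts. By rescaled TPM its rank among all nuclear protein-coding genes was 256 and 296, and within the family it was 3 in both libraries. By expected counts its rank within the family was 4 in both libraries. Trim58 lies on chromosome 11 (chr11:58640465-58652404, plus strand) and likewise has a single annotated transcript, Trim58-201, of 2192 bases. Trim58 was below Trim10 in each library, by a log2 ratio of -0.68 and -0.89 (-0.78 ± 0.15), and the values of the pair did not overlap.

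Together Trim10 and Trim58 made up 43.2% and 43.9% of the TPM of the family (43.5 ± 0.492%, n = 2), of which Trim10 alone gave 27.5 ± 1.33%. The mean of the pair was 43.4 times the median of the 29 other detected members in replicate 1 and 36.0 times in replicate 2, a log2 ratio of 5.31 ± 0.19. That median was 11.3 and 12.9 rescaled TPM, while the median of all detected nuclear protein-coding genes was 14.5 in both libraries. In rescaled TPM Trim10 stood above every other member, and Trim58 above every other member except Trim59. By expected counts, with no length correction, Trim10 was again first. Trim58 was then below Trim56 (2806 and 3741 counts) as well as Trim59 in both libraries. The ratio depends on which low members enter the median, and was 5.98 on the log2 scale with no filter and 4.70 among members at 5 rescaled TPM or more.

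**Figure D1:**
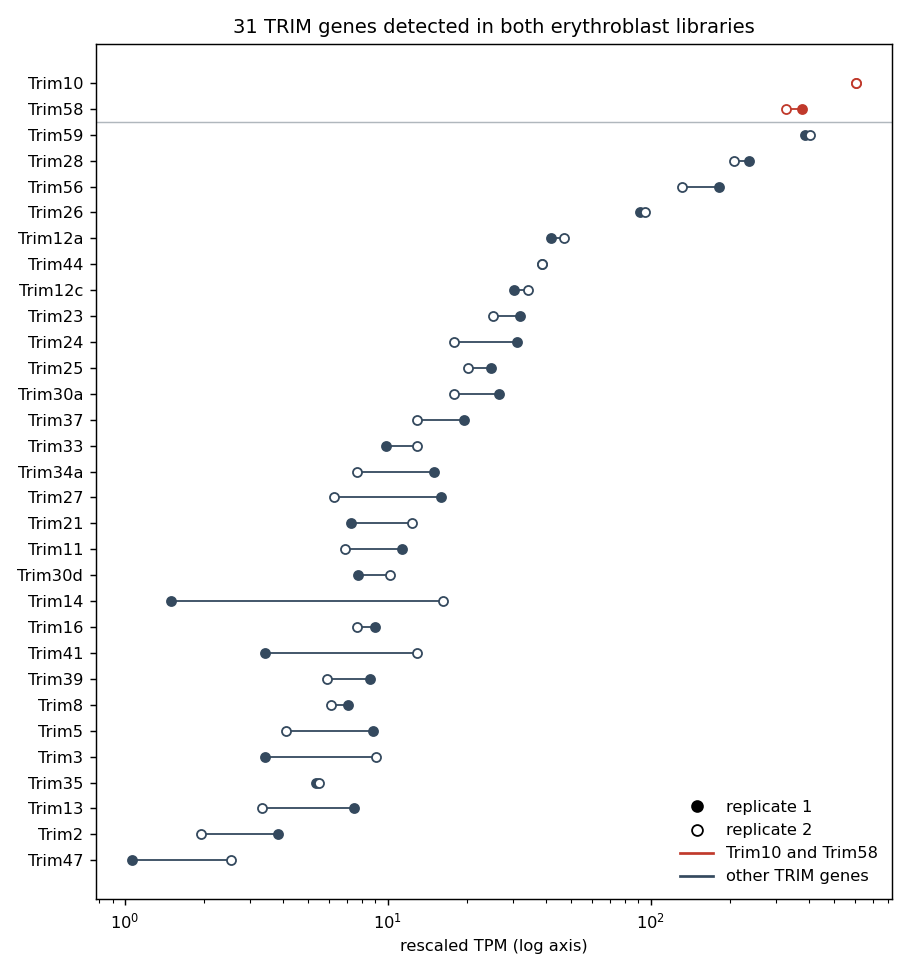
Levels of the 31 detected TRIM genes, in rescaled TPM on a log axis, with Trim10 and Trim58 above the line and the other members below it in order of mean level. Filled points are replicate 1 and open points replicate 2, joined by a line, and where the libraries coincide, as for Trim10 and Trim44, only the open point shows. Trim59 is the one other member that reaches the pair, and the widest gaps between the libraries are at low levels, as for Trim14 and Trim41.

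In rescaled TPM, Trim59 was the other member that reached the level of the pair. This gene, whose product is anchored in a membrane, had 387 and 402 rescaled TPM (395 ± 11.2, n = 2), from 2666 and 4057 expected counts. Trim10 was above Trim59 by a log2 ratio of 0.65 and 0.59. Trim58 was just below it, by a log2 ratio of -0.03 in replicate 1 and -0.30 in replicate 2, so the order of Trim58 and Trim59 rests on a small gap next to the spread of Trim58.

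Below these came Trim28, Trim56 and Trim26. Trim28, also known as KAP1, is the corepressor of KRAB zinc finger proteins, and it had 238 and 207 rescaled TPM (222 ± 21.9). Trim56, a ligase known in antiviral DNA sensing, had 182 and 131 (157 ± 35.9). Trim26 had 90.9 and 95.1 (93.0 ± 2.99). The 5 highest members held 78.6% and 78.7% of the family's TPM, and all 5 passed 100 rescaled TPM in both libraries. For Trim28 this level is mostly retained intron transcript, 90.2% and 90.4% of its TPM, and its coding level was 23.3 and 19.8. The 5 are 7.46% of the members, beside 3.86% of all nuclear protein-coding genes.

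The whole family summed to 2277 and 2126 rescaled TPM (2202 ± 107), or 0.228% and 0.213% of the nuclear protein-coding TPM. Detection, set at a rescaled TPM of at least 1 in both libraries, was met by 31 of 67 members (46.3%), beside 42.9% of all nuclear protein-coding genes. With at least 10 expected counts in both libraries the numbers were 29 members (43.3%) and 42.8% of all genes, and at 5 rescaled TPM 24 members, beside 31.1%. The family was detected about as often as genes in general. Among the detected members 5 averaged over 100 rescaled TPM, 12 between 10 and 100, and 14 under 10.

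The middle of the family held members of varied function. Trim12a and Trim12c, mouse relatives of the retroviral restriction factor TRIM5, averaged 44.4 ± 3.79 and 32.3 ± 2.79 rescaled TPM. Trim44, an atypical member without a RING finger, had 38.7 and 38.6. Trim23, which carries an ARF GTPase domain, had 31.9 and 25.1, and Trim24, a bromodomain protein of transcription, had 31.0 and 17.8. Trim25, the ligase known to modify the RNA sensor RIG-I, had 24.8 and 20.2. Trim30a, a regulator of NF-kB signalling, had 26.5 and 17.8, and Trim37, which has a MATH domain, had 19.5 and 12.9. In order of mean level, from Trim12c through Trim23, Trim24, Trim25 and Trim30a to Trim37, the values of each gene overlapped with those of the next.

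The remaining 36 members were not detected. Of these, 20 had 0 counts in both libraries (29.9% of members, beside 41.2% of all nuclear protein-coding genes), and 16 had counts without passing, 7 of them in 1 library only. The 20 at 0 were Trim7, Trim29, Trim31, Trim38, Trim42, Trim43a, Trim43b, Trim46, Trim50, Trim52, Trim54, Trim60, Trim63, Trim66, Trim67, Trim69, Trim71, Trim72, Trim75 and Trim80. A count of 0 allows up to 3 counts, which for an effective length of 1 kb is 0.892 rescaled TPM in replicate 1 and 0.555 in replicate 2, so low expression was not detectable at this depth. Just inside the threshold lay Trim47, with 1.07 and 2.55 rescaled TPM, and Trim14, with 1.497 and 16.3. Just outside lay Trim32, with 3.21 and 0.981, and Trim34b, with 0.642 and 3.53.

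Grouped by domain, the transcriptional members with a PHD finger and bromodomain were detected in 3 of 4 cases, beside 42.9% of all nuclear protein-coding genes. Groups of this size cannot be set apart from that share. Trim28 led them, Trim24 followed, and Trim33, which is needed for blood formation in zebrafish, had 9.84 and 12.9 rescaled TPM (11.4 ± 2.20) from 286 and 610 counts. The fourth, Trim66, was at 0. The NHL-repeat members were detected in 2 of 4 cases at low levels: Trim2 had 3.85 and 1.96 and Trim3 had 3.42 and 9.02, while Trim32 missed the threshold and Trim71, a stem cell protein, was at 0. None of the 4 members with a COS box and fibronectin repeat (Trim9, Trim36, Trim46, Trim67) and none of the 3 muscle members (Trim54, Trim55, Trim63) was detected. Trim55 had 2 and 11 counts. Both listed membrane-anchored members were detected, Trim59 and Trim13, with Trim13 at 7.48 and 3.33 rescaled TPM.

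The 18 members listed for innate immunity were detected in 12 cases, beside 42.9% of all nuclear protein-coding genes. The list median was 8.26 ± 0.941 rescaled TPM, beside 0.517 ± 0.176 for all nuclear protein-coding genes. Of all those genes 41.2% had no counts in both libraries. The list was chosen with earlier results of these data known, and its gap to genes in general was not tested. The 18 members summed to 454 and 407 rescaled TPM. Trim56, Trim26, Trim12a and Trim12c led, and Trim21, the cytosolic antibody receptor, had 7.27 and 12.4. The other detected ones were Trim25, Trim30a, Trim34a, Trim30d, Trim14, Trim8 and Trim5. Trim6, Trim30b, Trim30c, Trim34b and Trim65 had counts without passing, and Trim38 was at 0. Neutrophil markers, whose summed level is given above, were present in both libraries, and their part in these levels was not tested.

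The order of the family changed with the type of transcript counted, including the order of Trim58 and Trim59. Trim10 and Trim58 have 1 protein-coding transcript each, so all their TPM is coding. Trim59-201, the coding transcript of 2939 bases, held 70.5% and 63.8% of the TPM of Trim59, from 2570 and 3872 expected counts. Trim59-203, a retained intron transcript of 384 bases, held 29.5% and 36.1%, from only 95.8 and 183 expected counts. In Trim28 the retained intron transcript Trim28-203, of 565 bases, held 70.1% and 66.0%, while the coding Trim28-201, of 3245 bases, held 9.82% and 9.62%. Their expected counts were alike, 241 and 305 for Trim28-203 and 244 and 333 for Trim28-201, while their TPM and their lengths differed. In Trim26 the processed transcript Trim26-209 held 73.0% and 50.3%, and coding transcripts held 16.2% and 23.9%.

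**Figure D2:**
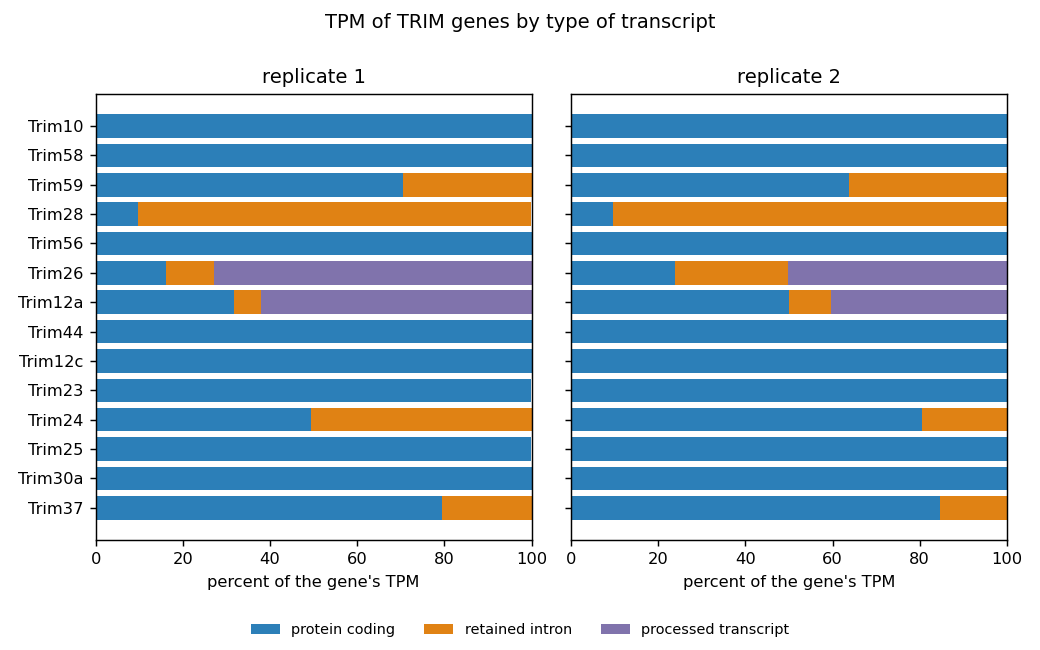
Share of each gene's TPM in protein-coding, retained intron and processed transcripts, in percent, for Trim10, Trim58 and the 12 other members with the highest levels, in replicate 1 on the left and replicate 2 on the right. Trim10 and Trim58 are coding throughout, whereas Trim28, Trim26 and Trim12a carry a large non-coding share in both libraries.

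With transcripts typed as protein coding only, a choice made after the data were seen, Trim10 and Trim58 were the first and the second of the family in both libraries. Trim58 had 378 and 328 rescaled TPM on that scale, against 272 and 257 for Trim59. Coding expected counts, with no length correction, were 2616 and 3615 for Trim58 and 2570 and 3874 for Trim59. By those counts the order of Trim58 and Trim59 differed between the libraries. Trim56, whose transcripts are all coding, came next, and Trim44 after it. Trim28 had 23.3 and 19.8, Trim26 had 14.8 and 22.7, and Trim12a had 13.3 and 23.5. The pair then held 55.5% of the coding TPM of the family.

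**Figure D3:**
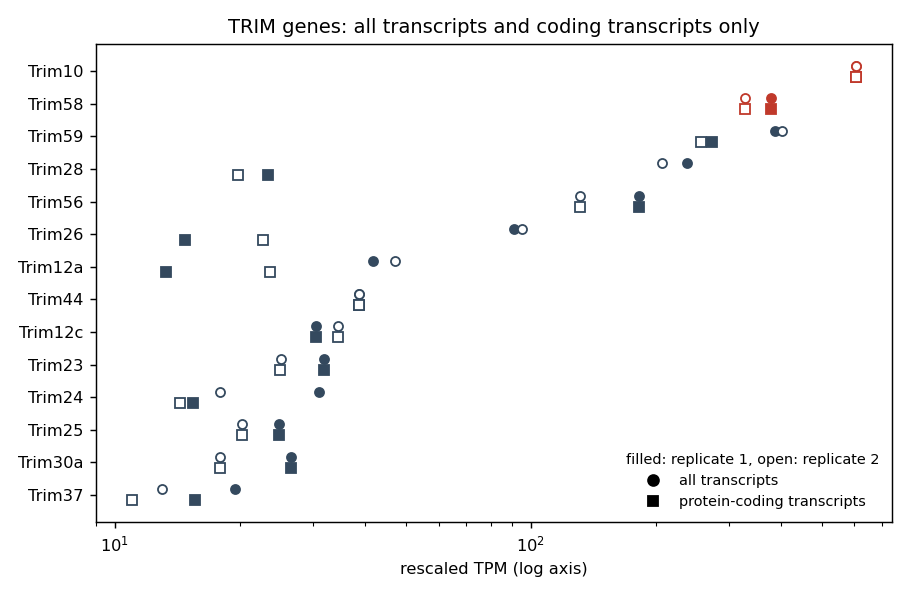
Rescaled TPM on a log axis from all transcripts (circles) and from protein-coding transcripts only (squares) for Trim10, Trim58 and the 12 other members with the highest levels. Filled symbols are replicate 1 and open symbols replicate 2. Both kinds of symbol lie at the same level for Trim10 and Trim58, while the squares of Trim28, Trim26 and Trim12a lie well to the left of their circles.

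The leading transcript, the one with the highest share of the gene's TPM, was the same in both libraries for 20 of the 31 detected members, and it was protein coding in both for 21. It was non-coding in both for 4, Trim28, Trim26, Trim3 and Trim47. It differed between the libraries for 11, which were Trim56, Trim12a, Trim27, Trim21, Trim30d, Trim14, Trim16, Trim41, Trim5, Trim3 and Trim2. In Trim56 the transcripts were nearly balanced: a transcript of 867 bases held 54.3% and 45.8%, and one of 9279 bases held the rest. In Trim27 the lead in replicate 1 was a transcript subject to nonsense-mediated decay, at 69.7%, and in replicate 2 a coding one, at 100%. Trim56, with 2806 and 3741 counts, was the one of the 11 with a mean of at least 500. Leading transcripts were not counted over all detected genes, so these numbers do not set TRIM genes apart from genes in general.

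The libraries agreed closely for the abundant members and poorly for the scarce ones. Over the 32 members with a mean of at least 20 counts, the median log2 ratio of replicate 2 over replicate 1, after TMM scaling of counts, was -0.18, beside 0.01 for all nuclear protein-coding genes at that depth. The median absolute ratio was 0.44, beside 0.42. The ratio of the 8 members with a mean of at least 500 counts was at most 0.29 on the log2 scale in either direction. For Trim10 it was 0.03 and for Trim58 -0.18. Across the 31 detected members, levels in the libraries correlated at a Pearson r of 0.925 on log2 values and a Spearman rho of 0.829. These describe genes of shared libraries and depths, not replicates.

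Of the 32 members, 6 lay over 2 times apart between the libraries (18.8%), beside 19.8% of all nuclear protein-coding genes at that depth. Trim14, with 7.65 and 65 counts, and Trim3, with 9 and 58, were higher in replicate 2 (10.6% of all genes were). Trim30b had 72 and 4 counts, Trim32 33 and 15, Trim30d 77.4 and 39.9, and Trim13 36 and 25, all higher in replicate 1 after scaling (9.16% of all genes). For Trim30d the TPM ran the other way, 7.70 and 10.2, and its leading transcript was 3282 bases long in replicate 1 and 635 in replicate 2. None of the 6 passed 100 counts in either library.

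**Figure D4:**
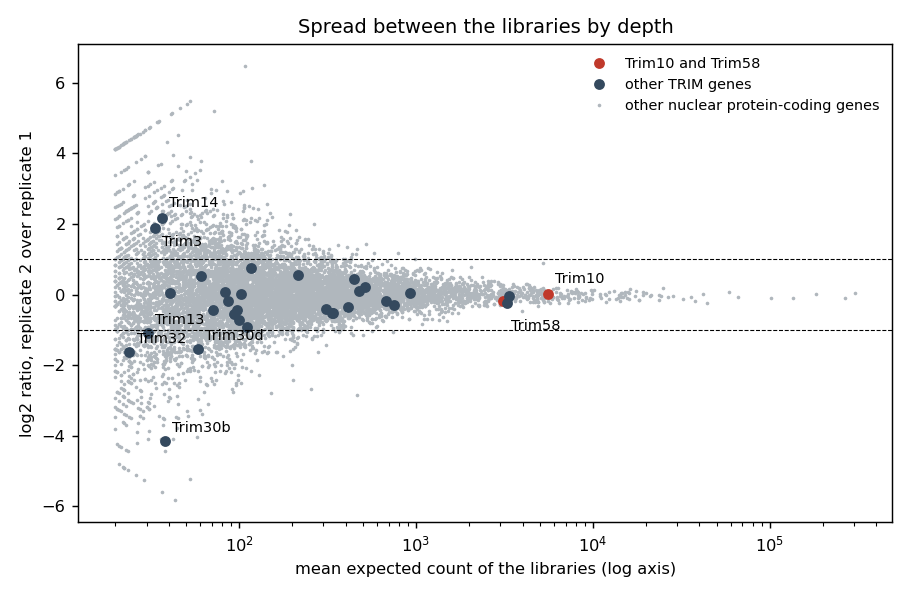
Log2 ratio of replicate 2 over replicate 1 after TMM scaling, against the mean expected count on a log axis. Red points are Trim10 and Trim58, dark points the other TRIM genes and grey points the other nuclear protein-coding genes with a mean of at least 20 counts, and dashed lines mark a difference of 2 times. The pair lies near 0, at 0.03 and -0.18, and the named members outside the lines lie at the left, where counts are low.

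Trim10 stood out from the genes beside it. In a cluster of 5 TRIM genes on chromosome 17 (chr17:36837134-36910214), Trim15, with 7 and 0 counts, and Trim40, with 9 and 0, flank it, and Trim31 had 0 in both. Trim26, at the edge of the cluster, had 93.0 ± 2.99 rescaled TPM. Trim58 lies mostly among olfactory receptor genes, and the counts of its 8 nearest genes were between 0 and 16. Of these Olfr323 had 0 and 16 counts and Olfr322 had 1 and 0. Trim59 lies beside Smc4, a condensin subunit, which had 183 and 166 rescaled TPM.

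**Figure D5:**
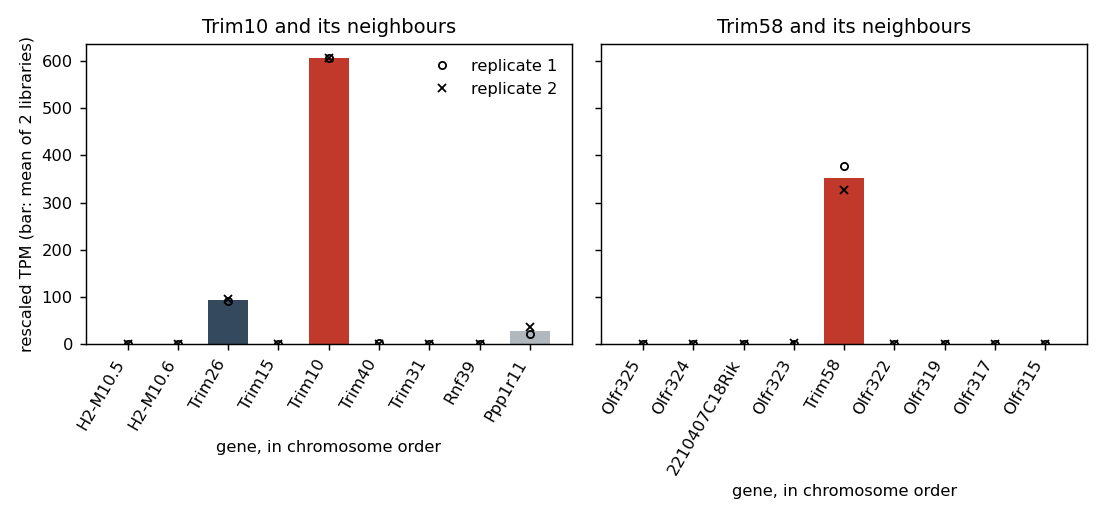
Rescaled TPM of Trim10 and its neighbours on chromosome 17 (left) and of Trim58 and its neighbours on chromosome 11 (right), in the order of the chromosome. Bars are the mean of 2 libraries, circles replicate 1 and crosses replicate 2, and the colours are red for the pair, dark blue for other TRIM genes and grey for other genes. Besides the pair, Trim26 and Ppp1r11 are the genes that stand clear of the base line, at 93.0 and 29.4.

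On chromosome 7, 10 TRIM genes lie within chr7:104218793-104507849. Of these 6 were detected, beside 42.9% of all nuclear protein-coding genes, and a group of this size cannot be set apart from that share. The sum over all 10 was 138 and 125 rescaled TPM (132 ± 9.23). The authors' expected counts share out reads that match several places. Of the 50-base words in the transcripts of Trim10 and Trim58, 0% occurred in another gene. In the cluster the share was 33.7% for Trim12c, 36.6% for Trim5, 59.7% for Trim34a and 56.8% for Trim34b. It was lower for Trim12a (10.5%), Trim30d (7.49%), Trim30a (5.98%), Trim6 (1.505%), Trim30b (1.48%) and Trim30c (0.660%). The levels of Trim5, Trim12c, Trim34a and Trim34b are uncertain for that reason. Summed, Trim12a, Trim12c and Trim5 had 80.8 and 85.5 rescaled TPM, and Trim34a with Trim34b had 15.6 and 11.2. The 4 Trim30 genes summed to 41.7 and 28.4. For 4 detected members another gene with at least 10 counts in both libraries overlaps on the opposite strand, namely Rack1 for Trim41, Dleu2 for Trim13, Nans for Trim14 and Zbtb45 for Trim28. The sources used here do not state whether counting used strand.

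The enzymes that hand ubiquitin to a TRIM ligase, and the ubiquitin genes themselves, were measured beside it. Ube2l6, an E2 enzyme of the ubiquitin-like modifier ISG15 and of ubiquitin, had 1009 ± 16.5 rescaled TPM, above Trim10. Ube2o, an E2 and ligase known to remodel the proteome of reticulocytes, had 502 ± 25.1, and Ube2d3, of the E2 group most RING ligases use, had 197 ± 5.30. Of the 14 listed E2 genes 13 were detected, beside 42.9% of all nuclear protein-coding genes, and Ube2e2 was at 0. All 4 ubiquitin genes were detected, with Ubb at 1326 ± 75.2, as were both E1 genes, with Uba1 at 65.2 ± 9.61.

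Dynein, the known target of Trim58, was present as RNA, each listed gene below Trim58. The light chain gene Dynll1 had 191 and 183 rescaled TPM, Dynlrb1 had 116 and 85.9, and the intermediate chain gene Dync1i2 had 44.7 and 43.3. The heavy chain gene Dync1h1 had 32.1 and 31.8. Of the 10 listed genes 8 were detected, beside the same 42.9%, and Dync1i1 and Dynlrb2 were at 0. RNA levels say nothing of the protein, which was not measured.

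TRIM proteins whose symbols do not begin with Trim fell outside the rule. Of the 4 listed ones 3 were detected, beside 42.9% of all nuclear protein-coding genes, too few to set apart from that share. Pml, the organizer of nuclear bodies, had 54.7 and 44.1 rescaled TPM (49.4 ± 7.51). Mid1 had 7.27 and 9.81, Mefv, the pyrin gene, had 1.92 and 4.31, and Mid2 was at 0. None came near Trim10 or Trim58.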

How the data were processed

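Total RNA-seq tables of 2 erythroblast libraries were used, each with a gene and a transcript table on mm10 with GENCODE M4, per the deposited read-me; the sources used here do not name the aligner or quantifier or give the strand setting. The authors deposited expected counts, TPM, a posterior mean of TPM, FPKM and, per transcript, the percent of the gene's TPM. Gene symbols, types and coordinates came from GENCODE M21 through Ensembl identifiers without version, and promoter windows from RefSeq. Spike-in rows and the pseudogene Trim30e-ps1 were left out, and Trim61 was not analysed here.

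TPM was rescaled so that the 21461 nuclear protein-coding genes sum to 1e+06 in each library. Expected counts were rounded for edgeR 4.0.16 (TMM factors 0.9619 and 1.04, log2 ratios with a prior count of 2) and for DESeq2 1.42.0, an alternative (size factors 0.7999 and 1.25), in R 4.3.3. With 1 group, edgeR's quasi-likelihood test could not be run. A chi-square of 157201 on 10237 degrees of freedom over 10238 genes set the libraries apart from a single library deposited in duplicate. The common dispersion of edgeR, over the 9957 genes that passed its filter, gave a coefficient of variation of 33.5% between the libraries. That variation may be technical. The ratio step was tested on simulated data. Values after ± are the SD of the 2 libraries. The limit of 3 counts covers counting error only, and since no molecular identifiers are stated, reads may be PCR copies.

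The members and lists were chosen with earlier results of these data known. Genes named were Trim10 and Trim58, the 12 other members with the highest mean, members at the threshold, up to 5 with the largest library ratio, members at 0, members whose leading transcript differed, those of the domain and innate immunity lists, the extremes of the partner lists, and a few neighbours chosen after their values were seen. A planned comparison of RING and B-box patterns in the proteins was not made. Some marker lists are not reported here.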

Additional observations from a re-analysis of the deposited data

How the results depend on the processing

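Of 52 alternative values for 10 results, 41 stayed the same, 11 moved and 0 reversed. The same means within the spread between the libraries, within 1.5 times a count, or within 0.1 for the median log2 library ratio. Part of this tally was fixed in advance. For a mean of 2 libraries taken with no filter, leaving out 1 library always stays within their SD. Rescaled FPKM repeats rescaled TPM apart from rounding, and counts, sums, shares and median levels cannot reverse. The family sum of 2202 became 3903 rescaled TPM without globin genes in the denominator and 1727 with protein-coding transcripts only, a setting added after seeing the data. The pair's share of the family, 43.5%, became 39.3% from expected counts with no length correction, 42.3% from the posterior mean and 55.5% with coding transcripts only. The log2 ratio of the pair over the median other member, 5.31, became 5.98 with no filter, 5.70 from the posterior mean and 4.70 at 5 rescaled TPM. The median of all 65 other members, 0.945, became 3.54 from the posterior mean, and the members over 2 times apart became 17 of 47 with no filter on counts. The cause of these moves was not tested, apart from the changed sets of genes or transcripts they are built on.

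Leaving out 1 library gave ranges of 33 to 38 for members detected, 33 to 34 for members with counts, 2126 to 2277 for the family sum, 43.2 to 43.9% for the share, -0.89 to -0.68 for the log2 ratio of Trim58 over Trim10, 5.24 (without replicate 1) to 5.83 (without replicate 2) for the pair against the median, and 0.392 to 1.497 for the median other member; replicate 1 or 2 alone gave 24 leading transcripts that were coding. No paired analysis was possible because there is 1 group. Depth limits the scarce members: apart from that unfiltered count, ratios between the libraries were given only from a mean of 20 counts.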
